A study of Ovis aries with 40 samples.

Results

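The insulin-like growth factor (IGF) family was represented by 21 probes of 10 genes, out of 15008 probes on the sheep array and 971 genes with a name. Members were every non-control probe whose gene name began with IGF or whose description contained the family's full name. They comprised the ligands IGF1 and IGF2, the receptors IGF1R and IGF2R, and the binding proteins IGFBP1 to IGFBP6. Expression was measured in longissimus dorsi, the long muscle of the back, of Texel sheep, a heavily muscled breed, and Ujumqin sheep, an indigenous fat-tailed breed. Fetuses of both breeds were taken on day 70 (T70, U70), 85 (T85, U85), 100 (T100, U100), 120 (T120, U120) or 135 (T135, U135) of pregnancy, and Ujumqin lambs also at birth, 1 month and 2 months (Ubirth, U1M, U2M). Each of the 13 groups held 3 animals, except T100 with 4, and each of the 40 arrays held the RNA of 1 animal. The ewes were purebred, synchronized for estrus and inseminated with semen of their own breed, the labels of the lambs carry the same protocol without a separate account of their birth, and no allele or treatment set the groups apart in the labels. The fetuses came from 3 ewes per breed and stage by caesarean section, the dam of each was not labelled, and the 4 fetuses of T100 therefore exceeded the number of ewes. No Texel lamb was sampled after birth. The T120 animals were all male and the U120, U135 and U2M animals all female, whereas both sexes were present in the other groups.

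IGF1 and IGF2 are small secreted ligands that drive the proliferation, survival and differentiation of muscle precursor cells through IGF1R, a receptor tyrosine kinase. IGF2R, which is also a receptor for mannose 6-phosphate, does not signal growth but takes IGF2 into the cell for breakdown. The binding proteins hold the ligands in the circulation and in the extracellular matrix. IGF2 is an imprinted gene, transcribed mainly from the paternal copy, and is known in mammals as a growth factor of fetal life, while IGF1 is the main ligand after birth and responds to growth hormone.

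The arrays carried 60-base probes, and the sequences of those on which the ligand and receptor results turn are printed 5′ to 3′ as the array files give them. The IGF2 probe A_70_P016796, which starts at base 583 of its transcript record, is shown because it had the widest range among the member probes:
IGF2 A_70_P016796: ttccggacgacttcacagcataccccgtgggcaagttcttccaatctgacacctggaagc
The 3 IGF1R probes are shown because they read separate stretches of the receptor and differed in their changes:
IGF1R A_70_P026721: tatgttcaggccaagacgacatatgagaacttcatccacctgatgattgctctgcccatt
IGF1R A_70_P041041: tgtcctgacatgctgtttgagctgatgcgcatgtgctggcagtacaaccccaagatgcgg
IGF1R A_70_P008176: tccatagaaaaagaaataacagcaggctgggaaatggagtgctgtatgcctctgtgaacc
The IGF2R probes are shown because they are a near duplicate, shifted by 1 base, and capitals mark the 59 bases they share:
IGF2R A_70_P041802: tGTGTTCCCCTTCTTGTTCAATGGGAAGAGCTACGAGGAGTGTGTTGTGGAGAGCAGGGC
IGF2R A_70_P041801: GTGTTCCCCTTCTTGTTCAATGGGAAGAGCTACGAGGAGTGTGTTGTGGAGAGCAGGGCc
Such overlapping pairs also stood for IGFBP2, IGFBP4, IGFBP5, IGFBP6 and part of IGFBP1, so that the 21 probes read 15 separate stretches. A pair is in effect 1 measurement, but the counts of called probes below include both of its probes and are not counts of separate measurements. The GC content of the 21 probes lay between 26.7% and 55.0%.

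Values are log2 signals after quantile normalization of the 40 arrays, and a difference of 1 is a doubling. A probe was called changed at an adjusted p under 0.05 (limma, Benjamini-Hochberg over 14475 tested probes). Before normalization the median signal per array ranged from 217.6 to 708.3, between 79.3% and 90.9% of spots were well above background, and no spot was saturated. The fast muscle light chain MYLPF and troponin TNNC2 had group means of at least 18.45 in every group. The summed signal of the 11 skeletal muscle marker probes lay between 20.29 and 21.01. Such a sum follows its brightest probes, and single probes of the list moved both ways. From 100 to 120 d in Texel 2 were called higher and 2 lower, and from U135 to Ubirth 3 higher and 3 lower. The arrays lay on 5 slides of 8. T70 and Ubirth were on slide 1, U70 and U85 on slide 2, U1M on slide 3, U120 on slide 4, U135 and U2M on slide 5, and the other groups on pairs of neighbouring slides. No slide held both breeds at 70 d, nor both groups of the Ujumqin steps from 85 to 100 d, 120 to 135 d, 135 d to birth, birth to 1 month and 1 to 2 months, so that slide and group cannot be told apart within them. A fit with slide as a fixed block reaches those steps through a chain of other groups that share slides, and its values stand beside a member's result where they differ by over 1.5 times.

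IGF2 fell late in gestation and went on falling after birth. Its probe A_70_P016796 read 15.26, 15.46 and 15.80 in T70, 15.94, 15.46 and 15.58 in T85, and 14.87, 15.28, 15.32 and 14.55 in T100. In the older Texel fetuses the values were 14.001, 13.21 and 13.45 in T120 and 13.27, 13.95 and 12.08 in T135. All 3 T120 fetuses lay below all 4 T100 fetuses, and the T135 fetuses spread the most and overlapped with T120.

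In Ujumqin fetuses the same probe read 15.51, 14.45 and 14.53 in U70, 15.79, 15.88 and 14.79 in U85, and 15.09, 14.80 and 14.92 in U100. It then read 15.01, 14.45 and 14.52 in U120 and 13.54, 13.05 and 12.44 in U135. The Ujumqin fetuses of 120 d still lay in the range of the younger ones, and only those of 135 d lay below all of them. After birth the values were 12.40, 12.83 and 12.98 in Ubirth, 10.34, 10.90 and 10.40 in U1M and 9.48, 9.95 and 8.94 in U2M. Each of the last 2 groups lay below every animal of the groups before it.

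The fall in Texel passed the test between 100 and 120 d, by 1.45 on the log2 scale (SE 0.35, adjusted p = 0.00563, 2.73-fold). That in Ujumqin passed between 120 and 135 d, at a log2 difference of -1.65 (SE 0.37, adjusted p = 0.00404, 3.15-fold), and again from birth to 1 month at -2.19 (SE 0.37, adjusted p = 0.000174, 4.56-fold). From 135 d to birth the difference was -0.27 (SE 0.37, adjusted p = 0.578), and the U135 and Ubirth animals overlapped. Each of the 3 calls held when any single array was left out. With slide as a fixed block the differences were -1.19, -1.40 and -2.25 and none was called, and the step in Texel was also not called in a fit of its 7 arrays alone.

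The second IGF2 probe, A_70_P029956, starts at base 1147 of its record and correlated with the first at r = 0.946 over the 40 arrays, which share stages and slides. It read 17.52, 17.75 and 17.94 in T70 and 17.34, 17.08 and 16.92 in T135, against 17.88, 17.80 and 17.91 in U70 and 17.47, 16.80 and 17.25 in U135. After birth it read 16.50, 16.72 and 16.89 in Ubirth, 15.67, 16.35 and 15.76 in U1M and 15.01, 15.21 and 14.54 in U2M. Every postnatal group lay below every animal of the group before it except for Ubirth, whose highest lamb lay above the lowest U135 fetus. Over the 5 fetal stages its group means spanned 0.82 in Texel and 0.82 in Ujumqin, against 2.56 and 2.48 for the first probe. It changed less across gestation than the first probe did, and the top of the common scale was 18.99, so whether its range was compressed there was not tested. Neither of the fetal steps called on the first probe was called on this one. Its group means there were 17.93 in T100 and 17.50 in T120, and 17.62 in U120 and 17.17 in U135. The steps from birth to 1 month and from 1 to 2 months were called, at -0.78 (SE 0.19, adjusted p = 0.00422) and -1.01 (SE 0.19, adjusted p = 0.00192), and both calls held without any single array. With slide as a fixed block they shrank to -0.49 (adjusted p = 0.897) and -0.33 (adjusted p = 0.898). That from 135 d to birth was called at -0.47 (adjusted p = 0.0433) but lost its call without U135 replicate 1 (adjusted p = 0.225), U135 replicate 3 (0.112), Ubirth replicate 1 (0.161) or Ubirth replicate 2 (0.0774). It stood at -0.04 when arrays were scaled to their 75th percentile (adjusted p = 0.911) and at -1.43 with slide as a fixed block (adjusted p = 0.168).

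**Figure D1:**
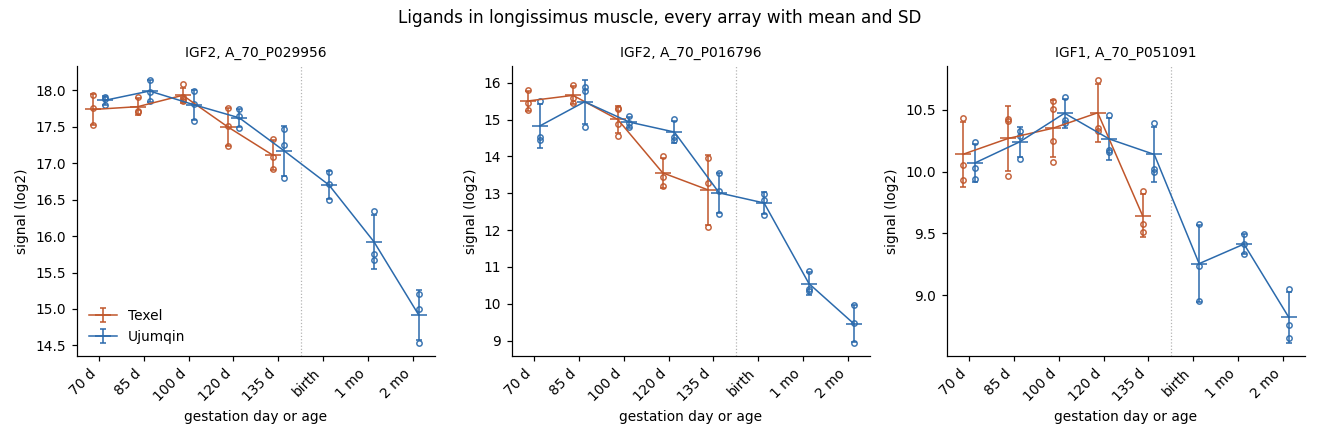
Signal on a log2 axis of both IGF2 probes and of IGF1 against gestation day or age after birth, with a circle for each array, bars for mean and SD, lines joining the means, and colours for Texel and Ujumqin; the dotted line marks birth. IGF2 probe A_70_P016796 declined from group means of 15.66 in T85 and 15.49 in U85 to 9.46 in U2M, and IGF1 stayed between 9.64 and 10.48 before birth and lay between 8.82 and 9.41 after it.

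IGF1, read by 1 probe, held its level through most of gestation and was lower from birth on. Its fetal group means ran from 10.07 ± 0.16 (SD, n = 3) in U70 to 10.48 ± 0.23 (SD, n = 3) in T120, with T135 apart at 9.64 ± 0.17 (SD, n = 3). The T135 fetuses read 9.84, 9.51 and 9.57 and lay below every animal of the other 9 fetal groups. Between 120 and 135 d IGF1 fell in Texel by 0.83 on the log2 scale (SE 0.17, adjusted p = 0.00513), a call lost without T120 replicate 3 (adjusted p = 0.0510). The corresponding step in Ujumqin was -0.12 (SE 0.17, adjusted p = 0.731), and the test of whether the breed difference varied between stages gave an adjusted p of 0.417.

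Ujumqin lambs read 9.58, 8.95 and 9.24 for IGF1 at birth, 9.41, 9.49 and 9.33 at 1 month and 8.76, 9.05 and 8.65 at 2 months, against 10.02, 9.998 and 10.40 in U135. All 9 lambs thus lay below the 3 fetuses of 135 d. The step from 135 d to birth was -0.88 (SE 0.17, adjusted p = 0.000185) and held without any single array. That from 1 to 2 months was -0.59 (SE 0.17, adjusted p = 0.0362), a call lost without any 1 of the 3 U1M arrays, U2M replicate 1 or U2M replicate 3 (adjusted p up to 0.148), and at -0.32 after normexp background correction (adjusted p = 0.210). In order of level, T120 and U100 headed the groups and U2M closed them, and neighbouring groups overlapped except U70 with T135 and T135 with U1M.

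IGF1R gave different courses on its 3 probes. Probe A_70_P026721 held group means between 9.22 and 9.80 in 9 of the 10 fetal groups and stood at 10.19 ± 0.62 (SD, n = 3) in T120. It read 8.30, 7.99 and 8.34 in Ubirth, against 9.26, 10.41 and 9.72 in U135, and returned to 9.02, 9.04 and 9.12 in U1M and 9.41, 9.44 and 9.30 in U2M. The newborn lambs were below all 37 other animals on this probe. The step into birth was -1.58 (SE 0.27, adjusted p = 3.63e-05, 3.00-fold) and held without any single array.

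The step out of birth, from Ubirth to U1M, was 0.85 on that probe (SE 0.27, adjusted p = 0.0261), the single rise among the family's called changes after birth, and its call was lost without Ubirth replicate 2 (adjusted p = 0.0994) or any 1 of the U1M arrays (0.0530 to 0.0687), and after normexp (0.51, adjusted p = 0.157). Probes A_70_P041041 and A_70_P008176 also had their lowest means in Ubirth, 8.70 ± 0.07 and 6.04 ± 0.37 (SD, n = 3). They fell into birth by 0.66 (SE 0.22, adjusted p = 0.0149) and by 0.84 (SE 0.33, adjusted p = 0.0378). The first of these calls was lost without U135 replicate 2 (adjusted p = 0.0842), and the second without U135 replicates 1 or 2 or Ubirth replicates 2 or 3 (0.0629 to 0.190). Under the fixed slide block they stood at -1.06 and -0.41, and the second at -0.49 with the 75th percentile and -0.25 with normexp, none of them called. From birth to 1 month neither passed, at 0.10 (adjusted p = 0.776) and 0.42 (adjusted p = 0.386). Over the 40 arrays these probes correlated with each other at r = 0.835 but with A_70_P026721 at 0.482 and 0.471, again across arrays that share stages and slides.

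IGF2R, the receptor that clears IGF2, fell through gestation in both breeds. Its probe A_70_P041802 read 10.33, 10.96 and 10.98 in T70, 10.92, 10.88 and 10.65 in T85, and 9.94, 10.07, 10.11 and 9.74 in T100. It read 9.05, 8.72 and 9.45 in T120 and 8.41, 9.48 and 8.09 in T135, so that the T100 fetuses lay between the younger and the older ones with no overlap. In Ujumqin the group means fell from 10.47 ± 0.33 at 70 d to 9.05 ± 0.38 at 135 d (SD, n = 3 each). The change over the fetal stages was called in both breeds, with spans of group means of 2.16 in Texel (adjusted p = 2.34e-07) and 1.53 in Ujumqin (adjusted p = 0.000182).

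Among single steps, that from 100 to 120 d in Texel was called on IGF2R probe A_70_P041802, at -0.89 (SE 0.27, adjusted p = 0.0261), and not on its near duplicate A_70_P041801, at -0.76 (SE 0.29, adjusted p = 0.0716). The call was lost without T100 replicate 2 or 3 or T120 replicate 2 (adjusted p up to 0.141). From birth to 1 month the first probe fell by 0.89 (SE 0.29, adjusted p = 0.0288), a call lost without any 1 of the 6 arrays (adjusted p up to 0.0845). Its near duplicate was not called there, with group means of 9.25 in Ubirth and 8.74 in U1M. A further IGF2R probe, A_70_P026306, whose name in the array file did not meet the rule for members, had group means of 7.23 in U70, 6.15 in U135 and 5.32 in Ubirth, and was called lower into birth at -0.83 (SE 0.23, adjusted p = 0.00485). The pair of member probes read 0.19 and 0.48 higher in Ubirth than in U135, without a call, so that the IGF2R probes disagreed in direction at that step. From birth to 1 month A_70_P026306 was 0.19 higher without a call, again against the direction of the pair.

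**Figure D2:**
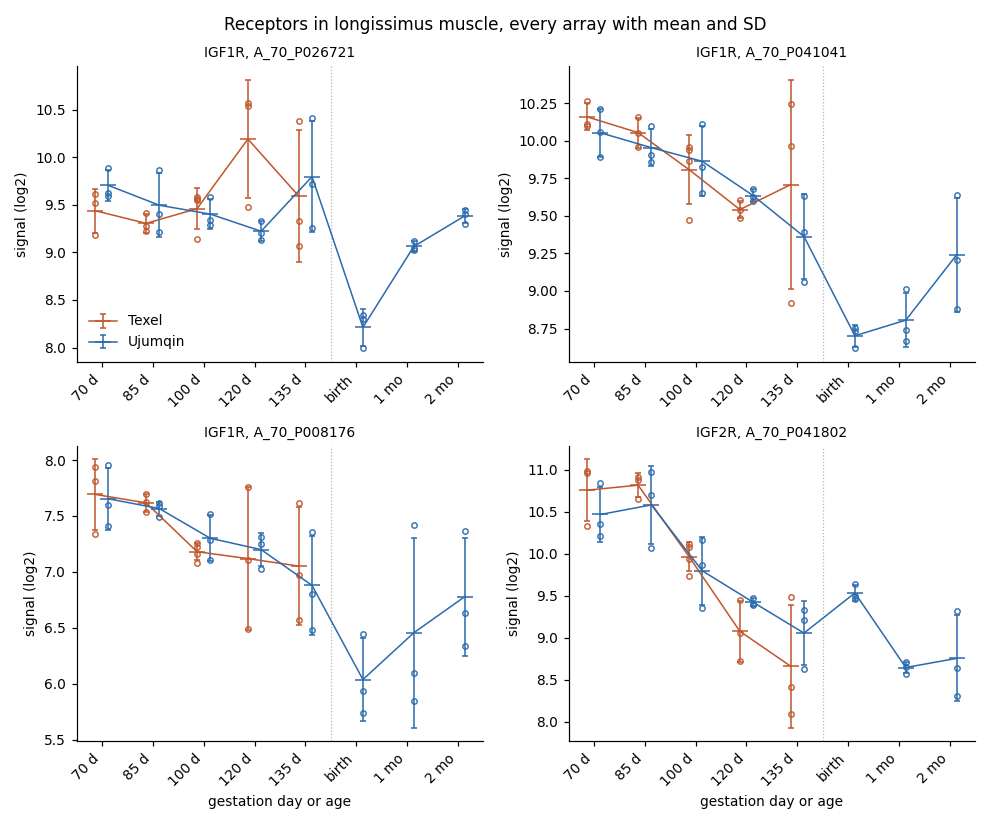
Signal on a log2 axis of the 3 IGF1R probes and of IGF2R probe A_70_P041802 against gestation day or age, with a circle for each array, bars for mean and SD, lines joining the means, and colours for the breeds. On A_70_P026721 the 3 newborn lambs lay between 7.99 and 8.34, below all other animals, and IGF2R declined from 10.76 in T70 to 8.66 in T135.

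IGFBP2 had the steepest course among the binding proteins. This carrier, which binds IGF2 with high affinity and is abundant in fetal tissue, read 15.77, 15.61 and 15.30 on probe A_70_P050967 in T70 and 15.73, 16.05 and 15.58 in U70. At 135 d it read 12.38, 10.99 and 11.74 in Texel and 11.84, 11.96 and 12.28 in Ujumqin. In each breed no fetus of 135 d reached the lowest fetus of 100 d. Lambs read 11.59, 11.83 and 11.11 at birth, 10.96, 9.91 and 10.37 at 1 month and 10.11, 10.74 and 9.80 at 2 months. The span of fetal group means was 3.85 in Texel (14.5-fold, adjusted p = 2.44e-11) and 3.76 in Ujumqin (13.5-fold, adjusted p = 1.04e-10).

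In single steps, IGFBP2 fell on both probes in Texel from 85 to 100 d and from 100 to 120 d. On A_70_P050967 the differences were -1.12 (SE 0.28, adjusted p = 0.0130) and -1.19 (SE 0.28, adjusted p = 0.00444). The first call was lost on that probe without T85 replicate 1 or 2 (adjusted p = 0.0535 and 0.0562), and on A_70_P050966, at -1.005 (adjusted p = 0.0301), without any array of those groups but T100 replicate 1. The second was lost on both probes without T120 replicate 2 (adjusted p = 0.0644 and 0.0604). With slide as a fixed block the first step shrank to -0.67 and -0.45 on the pair, and the second on A_70_P050966 from -1.26 to -0.79, without a call. In Ujumqin, A_70_P050967 was called from 120 to 135 d at -1.19 (SE 0.30, adjusted p = 0.00896), while A_70_P050966 stood at -0.90 (SE 0.31, adjusted p = 0.0593). The call held without any single array, but the difference was -0.18 with slide as a fixed block (adjusted p = 0.934). From birth to 1 month both were called, at -1.09 (adjusted p = 0.00941) and -0.93 (adjusted p = 0.0312). Those calls were lost without Ubirth replicate 2 or U1M replicate 2 on both probes (adjusted p = 0.0520 to 0.204), and on A_70_P050966 also without U1M replicate 3 (0.122). The fixed slide block reduced them to -0.48 and -0.17, and A_70_P050966 stood at -0.61 without Ubirth replicate 2.

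IGFBP3, the main carrier of IGFs in blood, had its highest group mean at 120 d in Ujumqin fetuses and was lower in lambs. Probe A_70_P041806 had group means of 13.39 ± 0.21 in U85, 14.67 ± 0.38 in U120, 13.64 ± 0.47 in U135 and 11.85 ± 0.42 in U1M (SD, n = 3 each). The 9 lambs read from 11.58 to 12.86 and lay below all 31 fetuses, of which the lowest read 13.12. Texel fetuses had means between 13.70 and 14.34, highest at 100 d, and no called change over the fetal stages. In Texel the other probe, A_70_P041807, rose from 85 to 100 d by 0.86 (SE 0.25, adjusted p = 0.0338), a call lost without any 1 of the T85 arrays, T100 replicate 3 or T100 replicate 4 (0.0693 to 0.125).

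IGFBP3 fell in Ujumqin from 120 to 135 d by 1.03 on A_70_P041806 (SE 0.27, adjusted p = 0.0141) and by 1.15 on A_70_P041807 (SE 0.27, adjusted p = 0.00606), both lost without U120 replicate 1 (adjusted p = 0.101 and 0.0592) or U135 replicate 2 (0.131 and 0.0826), and at -0.52 and -0.60 with slide as a fixed block. Into birth the differences were -0.96 (SE 0.27, adjusted p = 0.00550) and -0.89 (SE 0.27, adjusted p = 0.00858); the first held without any single array and the second was lost without U135 replicate 1 (0.0589). The fixed block gave -1.80 and -1.56 there, without a call. From birth to 1 month A_70_P041806 fell by 0.83 (SE 0.27, adjusted p = 0.0292), a call lost without any 1 of the Ubirth replicates 1 and 2 and U1M replicates 2 and 3 (adjusted p up to 0.125).

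IGFBP4, which mainly restrains IGF action and is cleaved by the protease PAPPA, stayed level until 120 d in Ujumqin and then declined. In Texel its group means on probe A_70_P017097 were 15.42 in T70, 15.17 in T85, 15.18 in T100 and 14.88 in T120, without a called step. Probe A_70_P017097 read 15.18, 15.11 and 15.08 in U120, 14.45, 14.49 and 14.81 in U135, 14.14, 13.88 and 13.47 in Ubirth and 13.09, 13.31 and 12.79 in U2M. These 4 groups did not overlap. The U1M lambs, between the last 2 in age, read from 13.33 to 13.75 and overlapped with Ubirth. In Texel probe A_70_P017097 fell from 120 to 135 d by 0.79 (SE 0.18, adjusted p = 0.0101) and its pair A_70_P017096 by 0.71 (SE 0.18, adjusted p = 0.0175). Both lost the call without T135 replicate 2 (adjusted p = 0.0589 and 0.0995), and the second also without T120 replicate 3 (0.0845) or T135 replicate 3 (0.0551). The fixed slide block reduced them to -0.40 and -0.32. Into birth it fell in Ujumqin by 0.75 (SE 0.18, adjusted p = 0.00150) and by 0.78 on its pair (SE 0.18, adjusted p = 0.000986), and both calls held without any single array.

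IGFBP6, a carrier with a preference for IGF2, read 15.45, 15.00 and 15.43 in U135 and 14.18, 13.85 and 14.34 in Ubirth on probe A_70_P041816, with no overlap. The step was -1.17 (SE 0.23, adjusted p = 0.000143) and -1.20 (SE 0.24, adjusted p = 0.000203) on its pair A_70_P041817, and both calls held without any single array. With slide as a fixed block the first was -0.85 (adjusted p = 0.590) and the second 0.01, turned in direction (adjusted p = 0.995). The 3 groups of lambs then read 14.12 ± 0.25, 14.56 ± 0.32 and 14.92 ± 0.46 (SD, n = 3 each), and neither step after birth was called. IGFBP5, a binding protein made by differentiating muscle cells, kept a narrow range: on A_70_P041811 its group means lay between 8.97 and 10.24, and no single step was called on either probe. IGFBP1, a product of liver, was barely detected. Its probes A_70_P016366, A_70_P016367 and A_70_P069081 were well above background on 2, 7 and 20 of the 40 arrays. A_70_P016367 was counted among the changes over the fetal stages in Texel (adjusted p = 0.0140) with readings well above background on 2 of 3 arrays each in T70 and T120 and on none in T85, T100 and T135, a fold of at least 1.21 from T85 to T70.

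**Figure D3:**
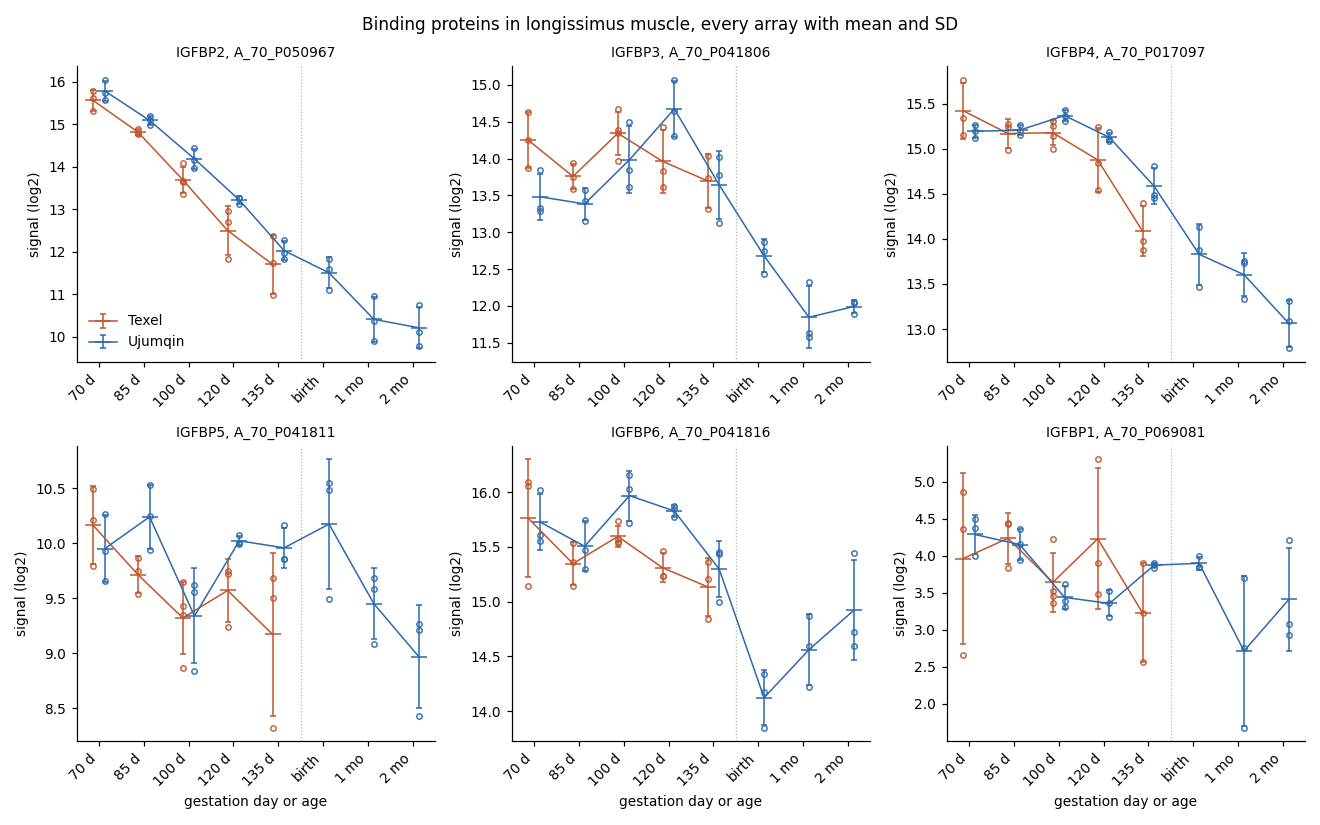
Signal on a log2 axis of 1 probe for each of the 6 binding proteins against gestation day or age, with a circle for each array, bars for mean and SD, lines joining the means, and colours for the breeds. IGFBP2 declined from 15.78 in U70 to 10.22 in U2M, IGFBP3 was highest at 14.67 in U120, IGFBP6 was lowest in Ubirth, and IGFBP1 stayed near background.

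Counted over the 5 fetal stages, 14 of the 21 probes (9 of 10 genes, all but IGFBP3) changed in Texel and 10 (IGF2, IGF2R, IGFBP2, IGFBP3 and IGFBP4) in Ujumqin. Of all tested probes 52.0% changed in Texel and 38.0% in Ujumqin, so the members' shares were not far from the background. The median span of group means was 0.99 for the members and 0.83 for all probes in Texel, and 0.90 and 0.71 in Ujumqin. By step, no member was called from 70 to 85 d in Texel (limma; 3 at an unadjusted p under 0.05; background 0.670%) or in Ujumqin (2; 0.276%), nor in Ujumqin from 85 to 100 d (8; 1.71%) or from 100 to 120 d (6; 1.22%); the unequal-variance test that the study's methods name also called none of them. In Texel 3 were called from 85 to 100 d, 2 lower and 1 higher (7.51% of all probes; 4.68% lower and 2.83% higher), 4 lower from 100 to 120 d (14.7%; 8.00% lower) and 3 lower from 120 to 135 d (6.45%; 2.29% lower). In Ujumqin 4 were called lower from 120 to 135 d (9.96%; 4.52% lower). These probes belong to 2, 3, 2 and 3 genes, and IGFBP3 from 85 to 100 d in Texel was the single rise among them. With slide as a fixed block none of the changes over the fetal stages in either breed and none of the Texel steps was called, and 1 of the 4 in Ujumqin was; few groups share a slide, and with slide as a random block 12 probes were called over the fetal stages in Texel and 10 in Ujumqin.

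Around birth, 11 of the 21 probes fell from U135 to Ubirth, those of IGF1, all 3 of IGF1R, 1 of IGF2 and both of IGFBP3, IGFBP4 and IGFBP6, and none rose. In all, 42.9% of the tested probes were called at this step and 22.1% lower, and the median difference was -0.75 for the members and -0.01 for all probes. From birth to 1 month 6 fell and 1 rose (21.0% of all probes; 10.8% lower and 10.2% higher), and from 1 to 2 months 2 fell, IGF1 and IGF2 (7.58%; 4.43% lower). These steps compare arrays of different slides: with slide as a fixed block, which rests on a chain of groups that share slides, none of the 3 steps kept a call, and with slide as a random block 9, 7 and 1 members were called.

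The Ujumqin fetuses of 135 d and the lambs of 2 months lay whole on 1 slide and were all female, and were therefore compared directly, a comparison chosen after the slides had been seen. IGF2, IGF1, IGFBP2, IGFBP3, IGFBP4 and IGFBP5 were lower in the lambs on all 11 of their probes, and IGF1R, IGF2R, IGFBP6 and IGFBP1 were not called on any. Over all probes 25.0% were called and 12.9% lower, and the median difference was -1.07 for the members against 0.01 for all. IGF2 A_70_P016796 fell from 13.54, 13.05 and 12.44 to 9.48, 9.95 and 8.94, a log2 difference of -3.55 (SE 0.36, adjusted p = 0.00434, 11.7-fold). On A_70_P029956 it fell by 2.25 (SE 0.25, adjusted p = 0.00539, 4.77-fold). IGF1 fell by 1.32 (SE 0.18, adjusted p = 0.00792, 2.50-fold).

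Among the binding proteins the same comparison gave -1.88 and -1.81 for IGFBP2 (adjusted p = 0.00834 and 0.00939), -1.65 and -1.39 for IGFBP3 (0.00939 and 0.0191), -1.52 on both IGFBP4 probes (0.00731 and 0.00669) and -1.07 and -0.99 for IGFBP5 (0.0278 and 0.0389). The groups did not overlap on any of these probes, but overlap was not counted over all tested probes, so no background share stands beside this. The calls for both IGFBP5 probes were lost without any 1 of the U135 arrays or U2M replicate 1 (adjusted p up to 0.113), and that for IGFBP3 A_70_P041807 without U135 replicate 1 or 3 or U2M replicate 3 (up to 0.0661). The other 8 held without any single array. By the unequal-variance test named in the methods, none of the 11 was called after adjustment. IGF1R A_70_P026721 differed by -0.41 (SE 0.30, adjusted p = 0.340), IGF2R A_70_P041802 by -0.30 (SE 0.32, adjusted p = 0.513) and IGFBP6 A_70_P041816 by -0.38 (SE 0.27, adjusted p = 0.341).

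**Figure D4:**
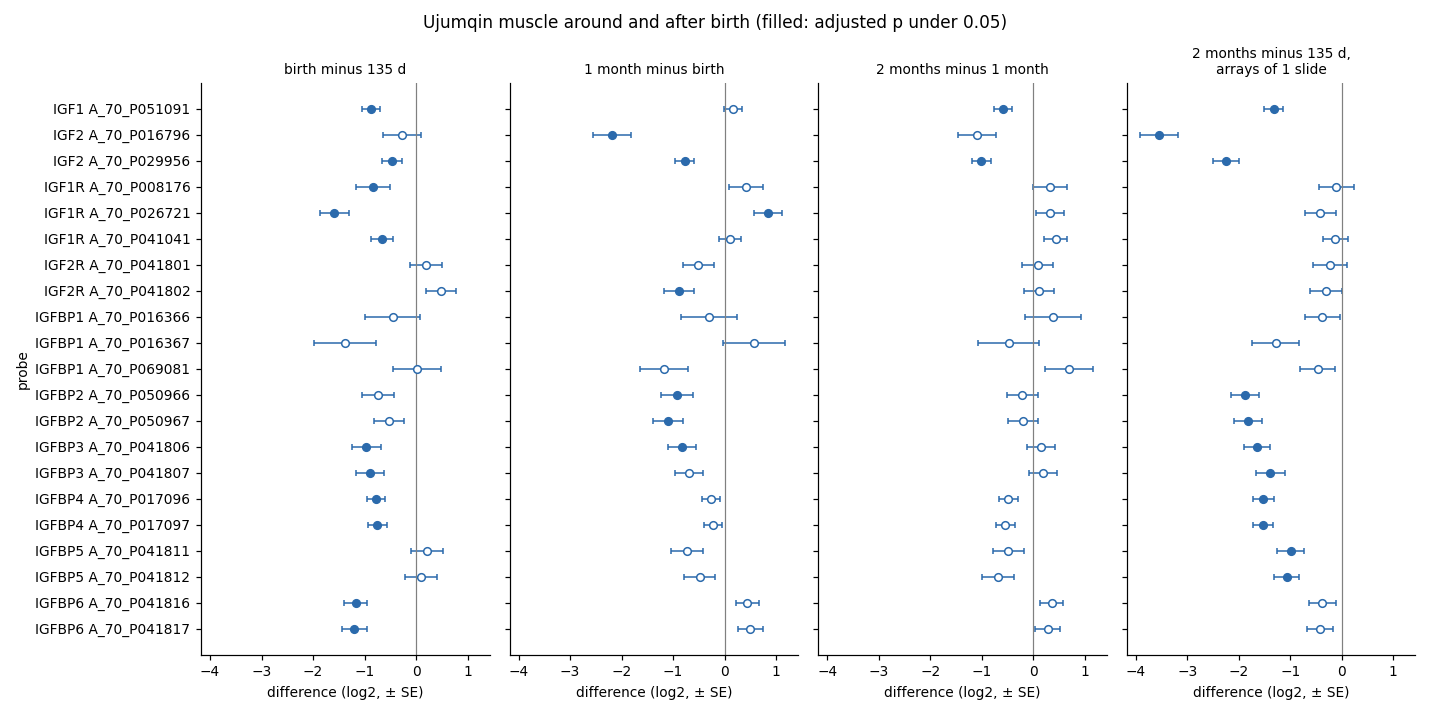
Log2 difference with its SE for each of the 21 probes in Ujumqin from 135 d to birth, birth to 1 month, 1 to 2 months, and 135 d to 2 months on arrays of 1 slide; filled circles mark an adjusted p under 0.05 and the grey line no difference. In the last panel 11 probes of 6 genes are filled, all to the left of the line, with IGF2 A_70_P016796 at -3.55.

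Markers of other cells were called at several of these steps, and their counts are to be read against all 14475 tested probes. From 100 to 120 d in Texel 8.00% of these were called lower. From 120 to 135 d it was 2.29% in Texel and 4.52% in Ujumqin. From U135 to Ubirth 3011 were called higher and 3205 lower, and from U135 to U2M 1740 higher and 1872 lower. In fetuses, 4 of 11 fibroblast and connective tissue probes fell from 100 to 120 d in Texel, 3 from 120 to 135 d in Texel and 1 from 120 to 135 d in Ujumqin, and none rose. Their summed log2 signal ran from 19.58 to 19.73 in T100, 18.92 to 19.50 in T120, 18.94 to 19.19 in T135 and 19.48 to 19.64 in U120. From U135 to Ubirth 10 of the 11 fell and none rose, and their sum went from 19.03 to 19.22 down to 18.34 to 18.75. At that step 4 of 12 leukocyte probes rose (10.78 to 11.34 in U135, 10.94 to 11.25 in Ubirth), as did 3 of 11 adipocyte probes (13.34 to 13.65, 13.26 to 13.84), while 3 of 7 liver or serum probes (12.33 to 12.84, 11.06 to 12.25) and 2 of 6 endothelial probes (10.25 to 10.58, 9.44 to 10.29) fell. From U135 to U2M 2 of those 11 fell (18.39 to 19.13 in U2M), both probes of red blood cell HBB fell (17.37 to 18.00 down to 10.38 to 12.75), 4 of 6 endothelial and 4 of 7 liver or serum probes fell (12.33 to 12.84 down to 10.24 to 11.96 for the latter), and 9 of 12 leukocyte probes rose (10.78 to 11.34 up to 12.28 to 12.86). The part of these cells in the family's changes was not tested, and in bulk muscle fewer cells of a type and less RNA per cell cannot be told apart. The summed signal of the skeletal muscle list went from 20.54 to 20.64 in U135 to 20.90 to 20.99 in U2M. Of its 11 probes, however, 2 were called higher and 5 lower, with a median difference of -0.095.

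No member passed the test between Texel and Ujumqin at any fetal stage. Of the 21 probes, limma called 0 in each of the 5 comparisons, where the background over all probes was 0.117% for T70 and U70, 0.0207% for T85 and U85, 0.0138% for T100 and U100, 0.0345% for T120 and U120, and 0.0207% for T135 and U135, and the unequal-variance test named in the methods called 0 at each after adjustment. At an unadjusted p under 0.05 stood 2, 3, 3, 3 and 2 members in the same order, against 17.2%, 13.3%, 13.3%, 10.6% and 6.07% of all probes. A p that misses the threshold does not show that the breeds were alike. Averaged over the 5 stages 0 were called (5 at an unadjusted p under 0.05; 6.22% of all probes), and 0 for a difference that varied between stages (4; 0.207%). In the average the IGFBP2 probes came nearest, at -0.41 (SE 0.13, adjusted p = 0.0594) and -0.38 (SE 0.14, adjusted p = 0.0904), lower in Texel.

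Among the ligands, IGF2 A_70_P016796 at 120 d read 14.001, 13.21 and 13.45 in T120 and 15.01, 14.45 and 14.52 in U120, with no overlap, a difference of -1.11 (SE 0.28, adjusted p = 0.382). The other IGF2 probe differed by -0.12 (SE 0.20, adjusted p = 0.848), and its groups overlapped. At 70 d the first probe differed by 0.68 in the other direction (SE 0.31, adjusted p = 0.325). Its groups overlapped there, and breed and slide cannot be told apart. The other probe was lower in Texel at 70 d, with group means of 17.74 in T70 and 17.86 in U70. At 120 d the Texel fetuses were all male and the Ujumqin fetuses all female, so breed and sex cannot be told apart within that stage. Fits over 13 groups, chosen after the data were seen, gave the difference of the first probe at 120 d with sex or slide included. It was -1.17 with sex as a covariate (adjusted p = 0.143), and -1.26 with slide as a fixed block (adjusted p = 0.0657). IGF1 came nearest at 135 d, at -0.50 (SE 0.19, adjusted p = 0.802), lower in Texel with no overlap.

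Of the receptors, IGF1R A_70_P026721 read 9.47, 10.54 and 10.57 in T120 and 9.21, 9.33 and 9.13 in U120. The groups did not overlap, and the difference was 0.97 (SE 0.33, adjusted p = 0.425). It passed with slide as a fixed block, at 1.33 within the stage (adjusted p = 0.0444) and 1.16 over 13 groups (adjusted p = 0.00527), in the plain fit over 13 groups (adjusted p = 0.0431), and without T120 replicate 1 (1.33, adjusted p = 0.0459). With sex as a covariate over 13 groups it was 1.098 (adjusted p = 0.0594). The 2 T120 fetuses that read high were on slide 4 with U120, and T120 replicate 1 was on slide 3. The other IGF1R probes differed at 120 d by -0.09 and -0.08. The summed signal of 12 leukocyte probes ranged from 11.10 to 13.34 in T120 and from 10.83 to 11.33 in U120, with none called, and its part was not tested.

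Among the binding proteins, IGFBP3 A_70_P041806 was higher in T70 than in U70 without overlap, at 0.77 (SE 0.25, adjusted p = 0.201), where breed and slide cannot be told apart. It was lower in T120 than in U120 at -0.71 (SE 0.30, adjusted p = 0.475), and those groups overlapped. IGFBP5 A_70_P041812 was lower in T135 without overlap, at -0.91 (SE 0.30, adjusted p = 0.7501). Neither passed the test. Groups of 3 against 3 do not go below a two-sided p of 0.1 in an exact permutation test.

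**Figure D5:**
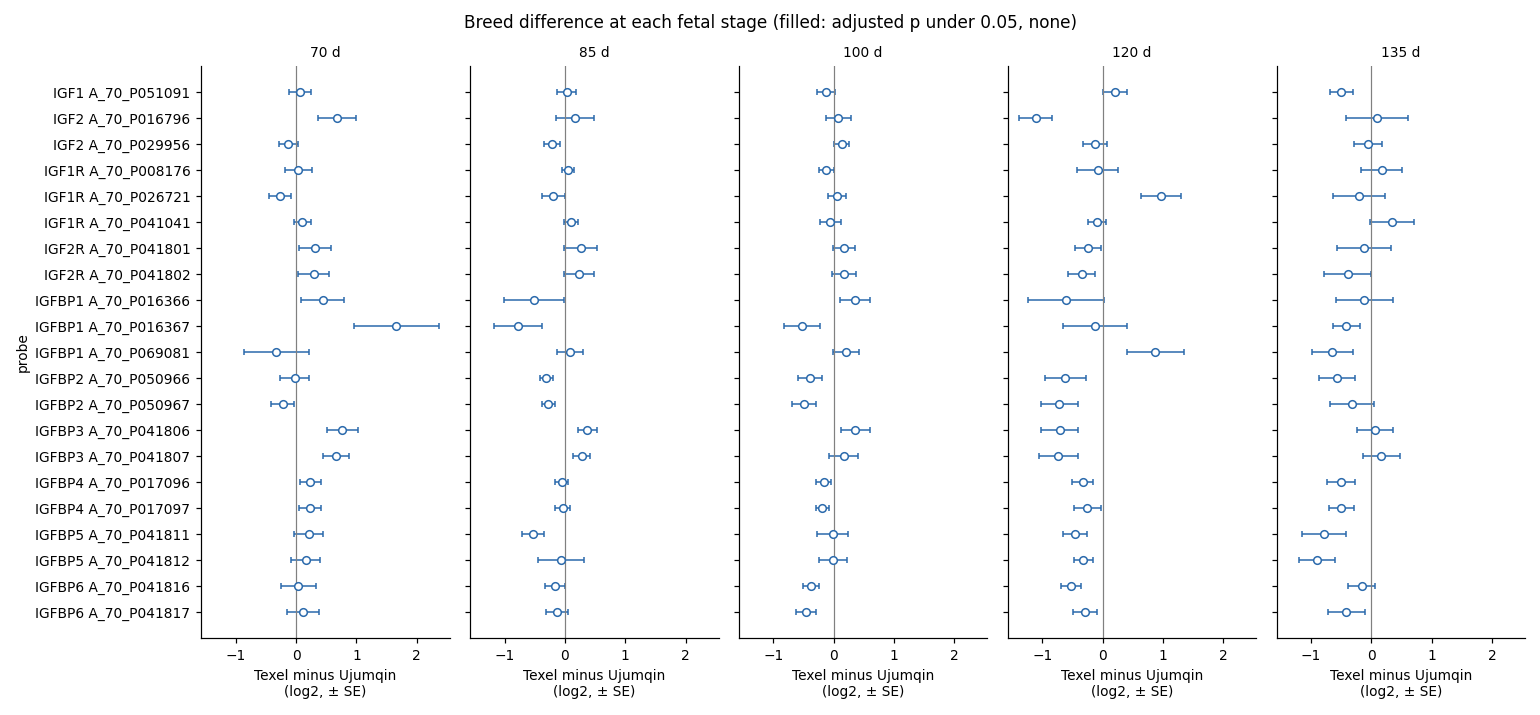
Log2 difference, Texel minus Ujumqin, with its SE for each of the 21 probes at the 5 fetal stages; open circles mark an adjusted p of 0.05 or more and the grey line no difference. All circles are open, with IGF2 A_70_P016796 at -1.11 and IGF1R A_70_P026721 at 0.97 at 120 d.

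Around the family, the array held few genes of the pathway. Of the insulin and IGF signalling partners listed for this work it carried 3, INSR, the glucose transporter SLC2A1 and the ribosomal protein RPS6, on 4 probes. Both SLC2A1 probes fell from U135 to Ubirth, at -2.03 (SE 0.31, adjusted p = 7.03e-06) and -2.04 (SE 0.31, adjusted p = 6.41e-06), and 1 fell from T85 to T100. INSR, the insulin receptor, was called at no step. From U135 to U2M 3 of the 4 probes fell, where 12.9% of all tested probes were called lower.

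Of the genes that supply or turn over IGFs, 11 were on the array with 17 tested probes. GHR, the growth hormone receptor through which IGF1 is induced, rose in both breeds from 85 to 100 d, by 1.17 in Texel (SE 0.33, adjusted p = 0.0286) and 1.36 in Ujumqin (SE 0.35, adjusted p = 0.0444), where the groups shared no slide. Its group means ran from 10.45 ± 0.26 in T70 to 13.30 ± 0.62 in U2M (SD, n = 3), opposite to the fall of IGF2. From U135 to Ubirth 7 of the 17 probes rose, those of GH, PRL, the lysosomal protease CTSD and CTSB, and 1 of the protease MMP2 fell. Of all 14475 tested probes, 3011 were called higher at this step and 3205 lower. The GH and PRL calls rest on few lambs. The GH probes were well above background in 1 of 3 newborns and in no other group. They were thus tested only because of the group in which they were high, and their calls give no support for a rise. The PRL probes had SDs of 2.32 and 2.60 in Ubirth. CDKN1C, an imprinted growth inhibitor and the single gene on the imprinted list that the array carried, went from 15.92 ± 0.19 in U70 to 12.95 ± 0.09 in U2M (SD, n = 3). It fell from 100 to 120 d in Texel at -0.71 (SE 0.20, adjusted p = 0.0169) and from 120 to 135 d in Ujumqin at -0.85 (SE 0.21, adjusted p = 0.00959). These are the fetal steps at which IGF2 A_70_P016796 was called, but the 2 genes parted after 135 d. CDKN1C fell into birth at -1.33 (SE 0.21, adjusted p = 1.32e-05), where that IGF2 probe was 0.27 lower without a call. From birth to 1 month CDKN1C was 0.39 higher without a call, while that IGF2 probe was called 2.19 lower.

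The named genes whose course was most like that of IGF2 were ranked by Pearson r to probe A_70_P029956 over the 13 group means, among 1496 named probes outside the family. The highest were GNRHR at 0.978, FZD2 at 0.968, RPL4 at 0.955, CD247 at 0.953 and RPS27A at 0.952. The lowest were SLC25A33 at -0.984, MCL1 at -0.982, HSP70.1 at -0.970, ATF4 at -0.967 and JUNB at -0.966. Among the highest, GNRHR was a dim probe, with group means from 5.76 in U100 down to 1.71 in U2M. Over the 40 arrays the first and last of the highest stood at 0.928 and 0.772, and SLC25A33 at -0.944. Within the family the IGFBP4 probes stood at 0.951, the other IGF2 probe at 0.968, IGF1 at 0.905 and IGFBP2 at 0.848 and 0.838, while IGF1R A_70_P026721 stood at 0.298. These values describe 13 groups that share stages and slides.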

How the data were processed

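Total RNA of each animal was labelled with Cy3 and hybridised to 1-colour Agilent sheep arrays. The authors extracted signals with Agilent Feature Extraction 10.5 (10.5.1.1 per the file headers), and the deposited processed signal intensity is background-subtracted and detrended by that software. The authors also deposited a table of log2 values, quantile normalized per the study's methods, used here as an alternative.

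From the processed signal intensity, outlier spots were left out, repeated spots averaged, all 40 arrays quantile normalized, a floor of 1 set and log2 taken. Probes well above background on at least 1 array were tested: 14475 of 15008, with all 21 members (14474 for the 2 steps after birth). The number of arrays limits the precision. Breeds were compared with limma 3.58.1 (R 4.3.3) on each stage's arrays; steps, averages and changes over stages came from 1 fit over 13 groups. P-values were adjusted by Benjamini-Hochberg over all tested probes. Each array is 1 animal; with dams unlabelled, litter mates may share a group.

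Members and gene lists were chosen with earlier results of these data known: all probes of the family are named, list probes by their calls, and like genes as the 5 highest and 5 lowest correlations. Names for 1606 probes came from the array files, updated where possible through RefSeq symbols, gene IDs and accessions. No genome was used, so positions are given in the probe's transcript record. The script was tested on simulated data. Alternatives covered scaling, background, filter, floor, fit, test, slide, sex, replicate number and left-out arrays. Slide as a random block, the 13-group breed fits with slide or sex, and the 1-slide comparison were added after the data were seen.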

Additional observations from a re-analysis of the deposited data

Results flagged for a closer look

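T100 was the single group with 4 animals, so an animal standing apart from its group could be looked for there alone. Of the 21 probes, 3 had an animal whose gap to its nearest neighbour took up an unusually large share of the group's range, and chance gives about 1 in 20. On IGF1R A_70_P026721, T100 replicate 3 read 9.14 against 9.55 to 9.59 in the others, a gap of 0.923 of the range. On IGFBP6 A_70_P041816, T100 replicate 4 read 15.73 against 15.53 to 15.57, a gap of 0.830 of the range, and on its near duplicate A_70_P041817 the same animal read 15.85 against 15.51 to 15.56, a gap of 0.862. No step of IGF1R or IGFBP6 into or out of T100 was called.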

How the results depend on the processing

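Among the stage differences of named probes, 633 alternatives left 498 on the same side of the threshold, 134 lost the call and 1 changed direction. Of 277 with an array left out, 72 lost the call. Among breed differences, 334 of 344 alternatives left the call as it was, 3 gained one and 7 changed direction. The number of arrays, and slides that follow stage, limit every count, and IGFBP1 lay close to background.

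The number of members called was 0 for the breed difference at 120 d and became 1 with slide as a fixed block (also over 13 groups) or in the fit over all 13 groups. For the breed difference averaged over stages it was 0 and became 1 with fetal arrays normalized alone or with trend and robust variance. The steps in Texel, with 3, 4 and 3 members from 85 d on, gave 0, 0 and 0 with slide as a fixed block and 6, 0 and 0 in a fit of the compared arrays alone. The test named in the methods gave 0 for the last 2 of these, and a 2-fold minimum 0 for the last. In Ujumqin the step from 85 to 100 d, with 0, gave 1 under normexp and 1 under trend and robust variance, and that from 120 to 135 d, with 4, gave 7 with fetal arrays normalized alone, 7 under normexp, 7 under trend and robust variance, 0 by the test in the methods and 1 with slide as a fixed block. From 135 d to birth, with 11, the counts were 3 with a 2-fold minimum, 1 by the test in the methods and 0 with slide as a fixed block. From birth to 1 month, with 7, they were 2, 0 and 0 in that order, and 3 in a fit of those arrays alone. From 1 to 2 months, with 2, they were 1, 0 and 0, 0 in a fit of those arrays alone, 1 under normexp and 1 with slide as a random block (correlation within a slide 0.0410). The 1-slide comparison, with 11, gave 0 by the test in the methods. The changes over fetal stages, 14 in Texel and 10 in Ujumqin, gave 0 and 0 with slide as a fixed block. The cause was not tested.

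Replicate numbers did not pair the samples: over 15 pairs the correlation of deviations ran from -0.308 to 0.108. With the replicate block the Texel step from 85 to 100 d gave 1 member, the Ujumqin step from 85 to 100 d 1 and the 1-slide comparison 8.

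Leaving out each array in turn gave 0 to 0 members for the breed differences at 70, 85, 100 and 135 d, 0 to 1 at 120 d, 0 to 2 averaged and 0 to 1 for variation between stages. The same gave 12 to 15 for change over stages in Texel and 7 to 10 in Ujumqin. Texel steps gave 0 to 0, 0 to 3, 1 to 6 and 1 to 6. Ujumqin steps gave 0 to 0 up to 120 d, then 2 to 6, 9 to 11, 3 to 6 and 1 to 2, and the 1-slide comparison 8 to 12.

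Changes of direction were among small differences. Scaled to the 75th percentile of each array, IGF2 A_70_P029956 between breeds became 0.091 at 120 d and 0.068 at 135 d. It became 0.0032 at 135 d under normexp and -0.12 at 100 d with slide as a fixed block (-0.14 over 13 groups). IGF2 A_70_P016796 at 100 d became -0.038 and -0.18 under the same blocks. Without 1 array its breed difference ran from -0.17 to 0.37 at 85 d, -0.035 to 0.22 at 100 d and -0.34 to 0.60 at 135 d, and that of A_70_P029956 from -0.25 to 0.010 at 120 d and -0.24 to 0.092 at 135 d. IGFBP6 A_70_P041817 from 135 d to birth became 0.014 with slide as a fixed block, its call lost. A covariate for sex at 120 d and a fixed block at 70 d could not be fitted on those stages alone and were not run.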
